A study of Rattus norvegicus with 10 samples.

Results

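The cytochrome P450 genes measured here were the rat genes whose symbol starts with Cyp and a digit, without pseudogenes and without the sterol and bile acid enzymes Cyp51, Cyp7a1, Cyp7b1, Cyp8b1 and Cyp27a1. They were read on Agilent whole rat genome arrays of liver RNA, and probes were named through the accession each carries. Of 71 such probes for 60 genes, 56 probes for 46 genes were well above background across all arrays of 1 group or more. These 56 are the P450 probes described below, of 22991 probes tested on the array. Family 1 held 2 probes of 1 gene, family 2 held 32 probes of 24 genes, family 3 held 4 probes of 4 genes and family 4 held 12 probes of 11 genes. The remaining 6 probes belonged to 6 genes of other families.

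The animals were male Sprague Dawley rats, each with 1 array. Control rats (n = 3) received only the propylene glycol vehicle. SM rats (n = 4) received sulfur mustard, an alkylating blister agent, under the skin at 3.5 mg/kg, which is 0.7 of the LD50. SM + MSTF rats (n = 3) received the same SM dose and, 1 h later, 120 mg/kg of MSTF by stomach tube, a mixture of salvianolic acids and of total flavonoids from the herbs Salvia miltiorrhiza and Anemarrhena asphodeloides. Livers were taken 24 h after SM in every group. No group received MSTF without SM, so an effect of MSTF by itself and its effect in SM-treated rats cannot be told apart.

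P450 enzymes are heme proteins of the endoplasmic reticulum and mitochondria that add oxygen to drugs, toxins, steroids and fatty acids, with electrons supplied by cytochrome P450 reductase. Members of families 1 to 3 clear most foreign compounds, and many are switched on by the receptors AhR (Cyp1a), CAR (Cyp2b) and PXR (Cyp3a). Family 4 members hydroxylate fatty acids, and in rat liver the Cyp4a genes are classic targets of PPARA, the receptor that fibrates and fatty acids activate.

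All values below are log2 quantile-normalized signals, 1 per rat, and a difference between groups is a log2 fold change with its standard error from 1 limma fit over the 10 arrays. A probe is said to have risen or fallen where the fold change reached 1.5 with a p under 0.05 after Benjamini-Hochberg adjustment. Levels of different probes are not set against each other. Because whole liver was measured, fewer cells of a type and less RNA per cell cannot be told apart. The 16 hepatocyte markers looked for were all above the filter, with a summed signal of 2744160 to 2855780 in control, 2711530 to 2943580 in SM and 2686370 to 2832890 in SM + MSTF. Such a sum mostly follows the markers of highest signal. Apoa2 rose in SM against control (log2 fold change 0.69), from 16.51, 16.85 and 16.71 to 17.45, 17.61, 17.15 and 17.33. It was the only marker of the 16 called in any comparison. The 4 SM arrays shared a slide of their own, the 3 control arrays shared a slide with SM + MSTF replicate 3, and SM + MSTF replicates 1 and 2 were on another slide. The SM arrays share no slide with any other group, so differences between slides cannot be told apart from those of SM against control, nor from those of SM + MSTF relative to SM, the comparison that holds the called P450 probes. SM + MSTF replicate 3 stood farther from its group than any other array, at a mean distance of 87.2 over all probes against 58.4 to 76.7 for the other 9. It was the highest or the lowest of the 10 arrays for 34 of the 56 P450 probes (60.7%) against 32.3% of all probes, and values without it, as differences of group means, stand beside the results that it moved most.

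Between control and SM livers, none of the 56 P450 probes rose or fell, where 2.41% of all probes tested did (0.974% higher and 1.43% lower). The fitted difference was above 0 for 35 of the 56 (62.5%), against 55.9% of all probes. At an unadjusted p under 0.05 the count was 7 of 56 (12.5%), against 16.4% of all probes. The arrays of SM and control did not overlap for 9 P450 probes (16.1%), against 18.0% of all probes, so both shares were no larger than the background. The smallest adjusted p of any P450 probe was 0.119 (limma, Benjamini-Hochberg). The median log2 fold change over the 56 probes was 0.05, and over all probes tested 0.03. For 50 of the 56 probes the 95% interval lay within 2-fold in both directions, and for 26 within 1.5-fold.

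**Figure D1:**
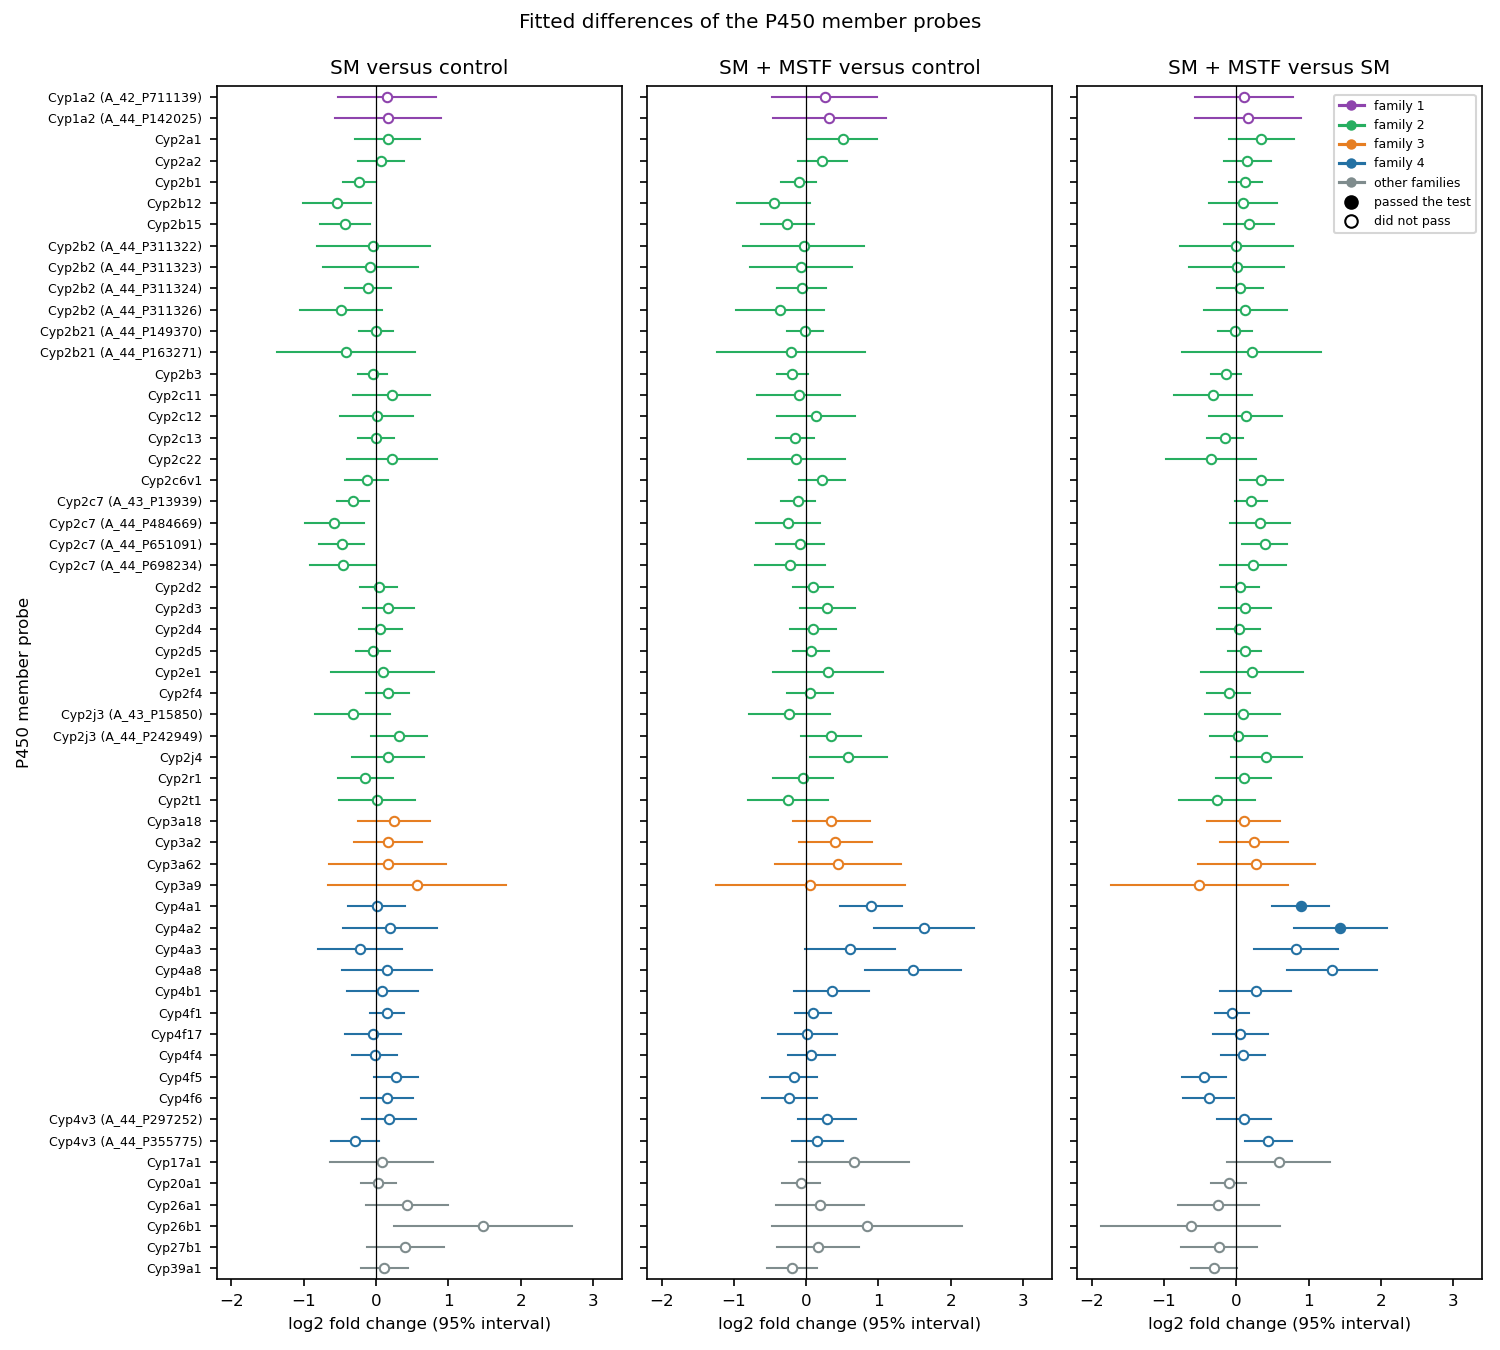
Log2 fold change of each of the 56 P450 probes (points) with its 95% interval (bars) in the 3 comparisons, coloured by family and ordered by family and gene; filled points passed the test. Filled points stand only at Cyp4a1 and Cyp4a2 in SM + MSTF relative to SM.

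Among families 1 to 4, the Cyp4a genes of family 4 had the highest fitted differences, and these stood between the MSTF-treated livers and both other groups. Cyp4a1 and Cyp4a2, fatty acid hydroxylases of the liver, were the only 2 of the 56 P450 probes that rose in SM + MSTF compared with SM (3.57%, against 0.322% of all probes rising), and 0 fell, against 0.939% of all probes. Called probes in both directions together made up 1.26% of all probes tested. Cyp4a3 and Cyp4a8, from the same subfamily, had fitted differences in the same direction without passing the test. Those 4 genes lie next to each other on chromosome 5 in the order Cyp4a8, Cyp4a2, Cyp4a3 and Cyp4a1, with Cyp4a2l1 and several pseudogenes between them, Cyp4x1 before them and Cyp4b1 after them. The bases upstream of the transcription starts of Cyp4a2, Cyp4a3 and Cyp4a8 are shown here because these neighbours include a called gene and had fitted differences of one direction. For Cyp4a1 no window is shown. The windows are the 250 bases before the start in RefSeq's GRCr8 assembly, read on the minus strand, at chr5:134170909-134171158 for Cyp4a2, chr5:134352237-134352486 for Cyp4a3 and chr5:133970227-133970476 for Cyp4a8. The capitals mark matches to AGGTCA, the core that nuclear receptors such as PPARA recognize, and the 12-base run CCCACAAGTAGG that the windows share.

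Cyp4a2: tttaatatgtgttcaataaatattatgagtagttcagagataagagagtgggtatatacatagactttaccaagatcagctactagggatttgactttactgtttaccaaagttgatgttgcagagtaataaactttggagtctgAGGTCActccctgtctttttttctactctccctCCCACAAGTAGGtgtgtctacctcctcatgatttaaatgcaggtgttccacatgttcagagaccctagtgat

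Cyp4a3: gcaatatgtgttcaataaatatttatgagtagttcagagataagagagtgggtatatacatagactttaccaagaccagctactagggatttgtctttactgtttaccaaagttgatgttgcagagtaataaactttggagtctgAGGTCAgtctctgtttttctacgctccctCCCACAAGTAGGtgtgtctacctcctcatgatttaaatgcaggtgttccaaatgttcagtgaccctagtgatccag

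Cyp4a8: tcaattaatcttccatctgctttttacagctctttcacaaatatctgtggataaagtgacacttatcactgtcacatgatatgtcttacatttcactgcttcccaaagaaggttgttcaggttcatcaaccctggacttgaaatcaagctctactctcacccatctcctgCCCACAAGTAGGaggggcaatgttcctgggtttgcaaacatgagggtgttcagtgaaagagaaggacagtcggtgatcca

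Cyp4a2 and Cyp4a3 were identical at 92.5% of aligned positions of these windows, while Cyp4a8 matched Cyp4a2 at 57.4% and Cyp4a3 at 59.9%. AGGTCA, searched on both strands, stood in the Cyp4a2 and Cyp4a3 windows, in 13 of the 39 P450 genes with a window and in 14.1% of all 33469 RefSeq windows of this length. A direct repeat of AGGTCA with 1 base between, the form that PPARA binds with its partner RXR, was in 17 of all windows (0.0508%) and in 0 of the 39. CCCACAAGTAGG, picked after the windows had been seen, was in 4 windows of all (0.012%), those of Cyp4a2, Cyp4a2l1, Cyp4a3 and Cyp4a8. A match is a description of the letters and not a binding site. Only exact matches within these short windows were counted, so the lack of a match does not show that a PPARA site is absent.

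Cyp4a2 signal was 10.77, 10.87 and 11.54 on the control arrays, 11.53, 11.54, 10.87 and 11.06 on the SM arrays, and 12.74, 12.13 and 13.21 on the SM + MSTF arrays, in order of replicate number. Every SM + MSTF array lay above every array of the other groups, while SM and control overlapped. Cyp4a2 rose 2.72-fold in SM + MSTF compared with SM, with a log2 fold change of 1.44 ± 0.29 (SE; adjusted p = 0.0465, limma). Compared with control the log2 fold change was 1.63 ± 0.31 (adjusted p = 0.348). In SM against control it was 0.19 ± 0.29 (adjusted p = 0.792).

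Cyp4a1 signal was 13.22, 13.39 and 13.11 in control, 13.29, 13.25, 13.34 and 13.12 in SM, and 14.01, 13.79 and 14.61 in SM + MSTF. Again the SM + MSTF arrays were above all others, and SM and control covered the same narrow range. Cyp4a1 rose 1.85-fold compared with SM, with a log2 fold change of 0.89 ± 0.18 (SE; adjusted p = 0.0455, limma). Against control the value was 0.90 ± 0.19 (adjusted p = 0.348), and SM differed from control by 0.01, with a 95% interval of -0.39 to 0.40.

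Cyp4a8 gave 12.86, 12.87 and 13.43 in control, 13.50, 13.40, 12.93 and 13.00 in SM, and 14.43, 13.99 and 15.17 in SM + MSTF. Its arrays separated as those of Cyp4a2 did, with a log2 fold change against SM of 1.32 ± 0.28 that missed the threshold (adjusted p = 0.0543, limma) and against control of 1.48 ± 0.30 (adjusted p = 0.348). Cyp4a3 gave 13.94, 14.08 and 14.42 in control, 13.98, 14.08, 14.00 and 13.65 in SM, and 14.35, 14.43 and 15.48 in SM + MSTF. Only the SM and SM + MSTF arrays of Cyp4a3 did not overlap, and the log2 fold change was 0.83 ± 0.26 against SM (adjusted p = 0.179) and 0.61 ± 0.28 against control (adjusted p = 0.532). Probe sequences were not used here, so how far the Cyp4a probes cross-react, Cyp4a2 with Cyp4a3 above all, was not tested.

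**Figure D2:**
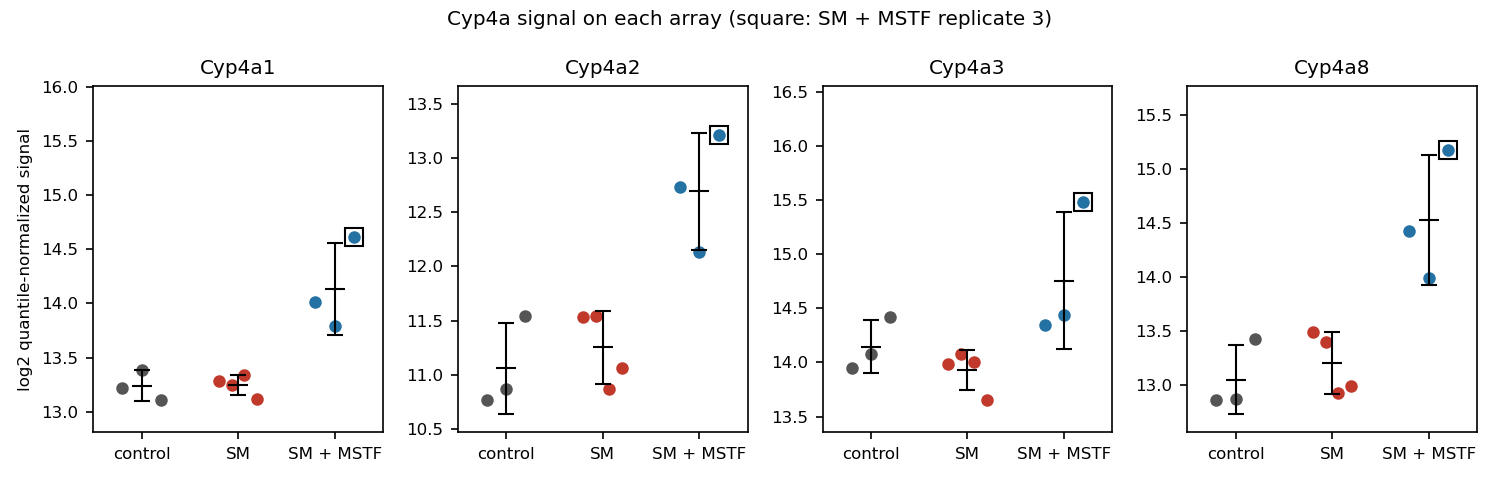
Log2 quantile-normalized signal of the 4 Cyp4a probes on each array (points) with the group mean and SD (bars), every panel spanning the same log2 range. The 3 SM + MSTF arrays lie above all SM arrays for each gene, and SM + MSTF replicate 3 (square) is the highest in each panel.

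SM + MSTF replicate 3 was the highest array for all 4 Cyp4a genes. On the slide shared with the control arrays it exceeded the control mean by 1.37 for Cyp4a1, 2.15 for Cyp4a2, 1.34 for Cyp4a3 and 2.12 for Cyp4a8 on the log2 scale. SM + MSTF replicates 1 and 2, on their own slide, exceeded it by means of 0.66, 1.38, 0.24 and 1.15. Without replicate 3, Cyp4a1 still rose compared with SM (0.65, adjusted p = 0.0430, limma), and Cyp4a2 (1.18, adjusted p = 0.106) did not pass. Without replicate 2, Cyp4a1, Cyp4a2 and Cyp4a8 rose (adjusted p = 0.0404 to 0.0419), and so 4 P450 probes were called, with Cyp4f5 lower by 0.63 as the other.

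Both calls were close to the threshold. They ended without SM + MSTF replicate 1 and without any 1 of the 4 SM arrays (adjusted p = 0.0581 to 0.129), although the log2 fold changes stayed at 0.85 to 0.95 for Cyp4a1 and 1.31 to 1.54 for Cyp4a2. Leaving out control replicate 1 or 2 left both estimates as they were and also ended both calls (adjusted p = 0.0643 to 0.0737), and without control replicate 3 Cyp4a2 alone was called (adjusted p = 0.0490). With slide as a random block neither was called (adjusted p = 0.0889 and 0.103). In a test of all 3 groups together, the moderated F-test, Cyp4a1, Cyp4a2 and Cyp4a8 had adjusted p = 0.0419 to 0.0485, which made 3 of 56 P450 probes (5.36%) against 2.07% of all probes.

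The rest of family 4 lay close to control. Cyp4b1, the neighbour of Cyp4a1 and an enzyme best known from lung, gave log2 fold changes of 0.35 ± 0.23 in SM + MSTF against control (0.21 without SM + MSTF replicate 3) and 0.27 ± 0.22 relative to SM (0.13 without it). The leukotriene and fatty acid hydroxylases of the Cyp4f subfamily had 5 probes, with log2 fold changes from -0.45 to 0.09 in SM + MSTF relative to SM and from -0.23 to 0.09 against control. Cyp4f5 was 5.64, 5.57 and 5.63 in control, 5.80, 5.96, 5.91 and 5.90 in SM and 5.32, 5.80 and 5.20 in SM + MSTF. Its SM arrays were all above control, while SM + MSTF replicate 2 reached the lowest SM array and the others lay below control, with a log2 fold change of 0.28 ± 0.14 in SM against control (adjusted p = 0.351) and -0.45 ± 0.14 in SM + MSTF relative to SM (adjusted p = 0.166). Over the 12 family 4 probes the median log2 fold change was 0.12 in SM against control, 0.22 in SM + MSTF against control and 0.19 in SM + MSTF relative to SM, and over the 4 Cyp4a probes it was 0.08, 1.19 and 1.11.

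Cyp4v3, a fatty acid hydroxylase, had probes that differed. A_44_P355775 read 9.95, 10.07 and 10.26 in control, 9.98, 10.02, 9.57 and 9.63 in SM and 10.43, 10.08 and 10.23 in SM + MSTF, all 3 above the SM arrays. Its log2 fold change was -0.29 ± 0.15 in SM against control and 0.44 ± 0.15 in SM + MSTF relative to SM (adjusted p = 0.199). The other probe, A_44_P297252, gave 0.17 ± 0.17 and 0.11 ± 0.17, so the gene had no single direction in SM.

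Other PPARA targets were read from a list of 15 genes, of which 13 were tested. None passed the test in any comparison, and their median log2 fold change was 0.32 in SM + MSTF relative to SM and 0.45 in SM + MSTF against control, with 11 of 13 above 0 in each. Without SM + MSTF replicate 3 the medians were 0.22, with 12 of 13 above 0, and 0.27, with 10 of 13 above 0. The full medians stand beside -0.02 and 0.00 over all probes. At an unadjusted p under 0.05 (limma) there were 6 of 13 in SM + MSTF against control, where 9.54% of all probes were. Relative to SM there were 4 of 13, where 15.9% of all probes were, and in SM against control 2 of 13, where 16.4% were. Angptl4, an inhibitor of lipoprotein lipase, gave 1.17 ± 0.26 in SM + MSTF relative to SM (adjusted p = 0.0697), the lowest adjusted p of the list in that comparison. It read 11.05, 10.76 and 10.82 in control, 10.72, 9.89, 10.22 and 10.90 in SM and 11.16, 12.02 and 11.62 in SM + MSTF, with SM + MSTF above every other array.

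Peroxisomal and mitochondrial fat oxidation genes of that list did not form a single pattern. Of the mitochondrial ones, Cpt2 (12.96, 12.96 and 12.91) and Hadha (11.81, 11.82 and 12.07) read higher in SM + MSTF than on every other array. Cpt1a and Acadm overlapped between the groups. Ehhadh, an enzyme of peroxisomal beta-oxidation, was nearest to a call in any comparison, with 0.74 ± 0.17 in SM against control (adjusted p = 0.0509) and 0.60 ± 0.18 in SM + MSTF against control, and SM + MSTF differed from SM by -0.13 ± 0.17. Acot1, an acyl-CoA thioesterase, gave 0.60 ± 0.20 in SM + MSTF relative to SM. Fabp1, the fatty acid carrier of liver, gave -0.06 ± 0.08 in SM and -0.11 ± 0.09 in SM + MSTF against control. Ppara itself gave 0.07 ± 0.26 in SM against control and 0.15 ± 0.26 in SM + MSTF relative to SM.

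**Figure D3:**
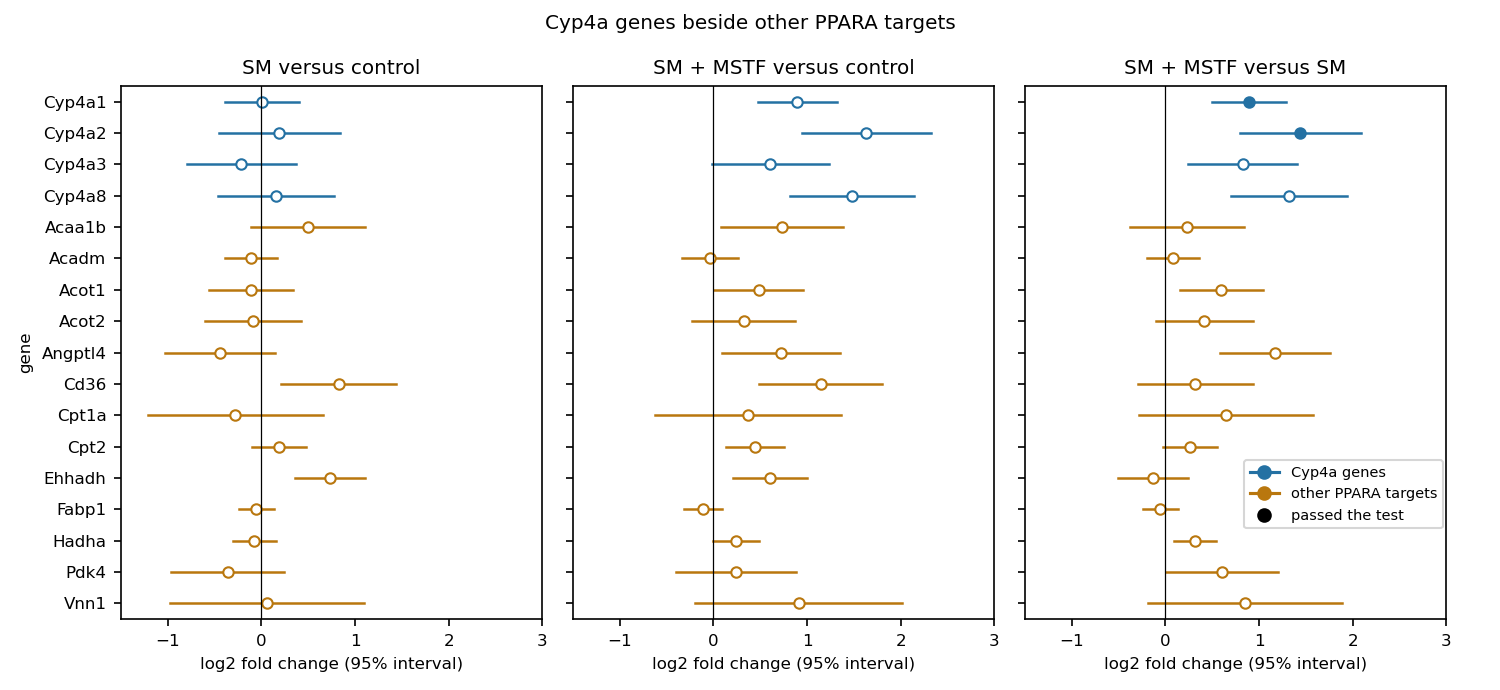
Log2 fold change (points) and 95% interval (bars) of the 4 Cyp4a genes and of 13 other PPARA targets in the 3 comparisons; filled points passed the test. In SM + MSTF relative to SM all 4 Cyp4a genes and 11 of the 13 others lie above 0, and only Cyp4a1 and Cyp4a2 are filled.

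Among markers of other liver cells, those of macrophages and Kupffer cells leaned to a single side in each comparison. All 10 were below 0 in SM against control (median -0.12) and above 0 in SM + MSTF against control (median 0.26). The lean in SM was uneven across arrays. SM replicate 2 was the lowest of all arrays for C1qa, C1qb, C1qc, Cd68 and Vsig4. For the same markers SM replicate 4 lay above every control array. C1qa read 13.87, 13.78 and 14.06 in control and 13.76, 13.32, 13.98 and 14.31 in SM. All 10 markers had a log2 fold change above 0 in SM + MSTF relative to SM (0.27 to 0.96, none called). Their summed signal was 110650 to 141583 in control, 72398 to 136504 in SM and 117156 to 147784 in SM + MSTF, with none of the 10 below the filter. The 6 natural killer cell markers tested were also above 0, with 1 of them, Klrd1, called higher there and lower in SM relative to control, and Ncr1 was below the filter. All 6 natural killer cell markers tested were below 0 in SM against control (median -0.53). Their summed signal ran from 1093 to 1324 in control, from 611 to 1607 in SM and from 830 to 1908 in SM + MSTF. The 5 erythroid markers tested were all below 0 in SM + MSTF relative to SM (median -0.29) and all above 0 in SM against control (median 0.90), with none called and a summed signal of 10815 to 18532 in control, 9354 to 29805 in SM and 10258 to 20150 in SM + MSTF. Control replicate 1 was the lowest of all arrays for Ahsp, Alas2, Hbb and Slc4a1, and the highest control array for Tfrc. Ahsp read 9.55, 11.39 and 10.56 in control and 10.71, 11.77, 12.03 and 11.63 in SM. The part of these cells in the Cyp4a result was not tested.

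Family 2 spanned the drug-metabolizing subfamilies Cyp2a, Cyp2b, Cyp2c, Cyp2d and Cyp2e. Its 32 probes had a median log2 fold change of -0.04 in SM against control, -0.07 in SM + MSTF against control and 0.11 in SM + MSTF relative to SM, and none passed the test. The lowest fitted differences in SM against control belonged to probes of Cyp2c7, a steroid and retinoid hydroxylase of which female rats have more, and of Cyp2b12, Cyp2b2, Cyp2b15 and Cyp2b21. The probes of the phenobarbital-inducible Cyp2b1 and Cyp2b2 were all below 0 but differed in size. Cyp2b1 was at -0.23, the lowest Cyp2b2 probe at -0.48 and the other Cyp2b2 probes at -0.11 to -0.04.

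All 4 probes of Cyp2c7 were lower in SM than in control by fitted value, from -0.58 to -0.32, without passing the test (adjusted p = 0.119 to 0.301). Probe A_44_P651091 read 17.08, 16.82 and 17.08 in control, 16.46, 16.53, 16.59 and 16.49 in SM and 17.26, 16.73 and 16.75 in SM + MSTF. Here the SM arrays lay below all control and all SM + MSTF arrays, and the log2 fold change was -0.47 ± 0.14 against control and 0.39 ± 0.14 in SM + MSTF relative to SM (adjusted p = 0.229). Probe A_43_P13939 read 17.49, 17.34 and 17.39 in control and 17.04, 17.06, 17.20 and 17.05 in SM, again without overlap, and 17.47, 17.23 and 17.17 in SM + MSTF. For the other 2 probes SM replicate 3 lay within the control range, and the other 3 SM arrays lay below it.

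The spread within SM + MSTF was wider than in control on 47 of the 56 P450 probes, the 10 Cyp2b and 9 Cyp2c probes among them. For Cyp2b12 the SD was 0.49 against 0.06. Cyp2b12, a P450 known from skin sebaceous glands, read 12.06, 12.15 and 12.17 in control, 11.44, 11.80, 11.34 and 11.75 in SM, and 11.23, 11.59 and 12.20 in SM + MSTF. SM lay below control on every array and SM + MSTF overlapped both, with log2 fold changes of -0.54 ± 0.21 in SM against control (adjusted p = 0.234) and -0.45 ± 0.22 in SM + MSTF against control. Cyp2b15 followed the same order, with 11.02, 11.16 and 11.11 in control, 10.49, 10.81, 10.53 and 10.83 in SM, 10.54, 10.80 and 11.17 in SM + MSTF and a fitted log2 difference of -0.43 ± 0.15 in SM (adjusted p = 0.195). Cyp2b1, the main phenobarbital-induced enzyme, gave -0.23 ± 0.10 in SM against control and 0.13 ± 0.10 in SM + MSTF relative to SM.

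Cyp2b2, the other phenobarbital-induced enzyme, had 4 probes whose log2 fold changes in SM against control ranged from -0.48 to -0.04. Probe A_44_P311326 read 14.42, 14.49 and 14.56 in control, 13.91, 14.29, 13.59 and 14.22 in SM and 13.57, 14.09 and 14.72 in SM + MSTF, while the 3 others overlapped between SM and control. In SM + MSTF, replicate 1 was the lowest and replicate 3 the highest array of that group on each of the 4 probes. That order also held for Cyp2b12 and Cyp2b15 but not for Cyp2b1 (12.15, 12.45 and 12.27), and the 2 extreme rats were on different slides. Cyp2b3, which phenobarbital does not induce, differed from control by -0.05 ± 0.09 in SM and -0.19 ± 0.10 in SM + MSTF, and the Cyp2b21 probe A_44_P149370 by 0.00 ± 0.10 and -0.01 ± 0.11. The second Cyp2b21 probe, A_44_P163271, was well above background on all control and SM arrays and on 2 of the 3 SM + MSTF arrays, and gave -0.42 ± 0.43 in SM and -0.21 ± 0.46 in SM + MSTF against control. Reads of one Cyp2b gene by the probe of another could not be assessed without probe sequences.

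**Figure D4:**
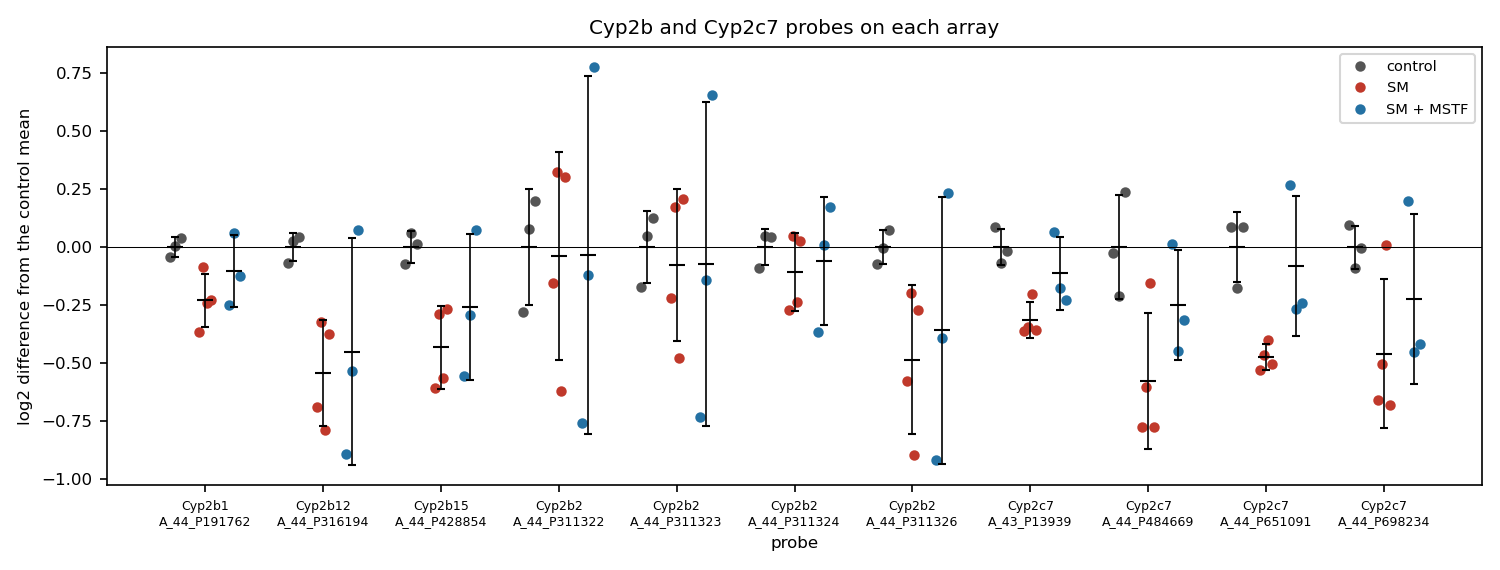
Log2 difference of each array (points) from the control mean for probes of Cyp2b1, Cyp2b2, Cyp2b12, Cyp2b15 and Cyp2c7, with group means and SD (bars). The SM points lie below the control points for Cyp2b1, Cyp2b12, Cyp2b15, 1 of 4 Cyp2b2 probes and 2 of 4 Cyp2c7 probes, and for each Cyp2b probe shown the SM + MSTF points are spread wider than the control points.

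None of the sex-dependent P450 genes passed the test in SM against control. Over the 4 female-predominant genes the summed signal was 154001 to 169101 in SM and 186490 to 201059 in control, without overlap. That sum is carried mostly by the Cyp2c7 probe and is no result about the set. By fitted difference 3 of the 4 genes were above 0 in SM against control (median 0.08), Cyp2c7 being the exception. Over the 6 male-predominant genes the summed signal overlapped. Cyp2c11, the main male-specific testosterone hydroxylase, read 16.85, 17.05 and 17.09 in control, 17.24, 17.67, 16.80 and 17.15 in SM and 16.51, 17.40 and 16.76 in SM + MSTF, and the groups overlapped. Its log2 fold change in SM was 0.22, with a 95% interval of -0.32 to 0.75. Of the 6 male-predominant genes listed, none passed the test in SM against control (median 0.18), and Cyp4a2 was the 1 that rose in SM + MSTF relative to SM. Cyp2c13, Cyp2a2 and Cyp3a18 gave 0.01 ± 0.11, 0.07 ± 0.14 and 0.25 ± 0.22 in SM against control. All 3 SM + MSTF arrays of Cyp2c13 lay below control, by -0.15 ± 0.12 (adjusted p = 0.707). The female-predominant Cyp2c12 gave 0.01 ± 0.23, and Cyp2a1, a testosterone 7-alpha-hydroxylase, 0.16 ± 0.20.

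Cyp2a1 and Cyp2j4 were the P450 probes outside Cyp4a with the largest differences in SM + MSTF against control among those without overlap. Cyp2a1 read 10.50, 10.84 and 10.87 in control and 11.34, 11.18 and 11.20 in SM + MSTF, a fitted log2 difference of 0.51 ± 0.21 (adjusted p = 0.504). Cyp2j4, an arachidonic acid epoxygenase, read 12.77, 12.88 and 12.93 in control, 13.39, 13.07, 12.74 and 12.90 in SM and 13.10, 13.23 and 14.00 in SM + MSTF, a fitted log2 difference of 0.58 ± 0.24 (adjusted p = 0.484). Its SM + MSTF mean leaned on replicate 3, which exceeded control by 1.14, while replicates 1 and 2 exceeded it by a mean of 0.31.

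SM + MSTF against control gave no call among the 56 P450 probes, and none among all probes (0%). At an unadjusted p under 0.05 there were 5 of 56 (8.93%, against 9.54% of all probes), namely Cyp4a1, Cyp4a2, Cyp4a8, Cyp2a1 and Cyp2j4. Arrays did not overlap for 9 of 56 (16.1%, against 15.4%). In SM + MSTF relative to SM the corresponding counts were 9 of 56 (16.1%, against 15.9%) and 6 of 56 (against 14.7%). The fitted difference was above 0 for 32 of 56 in SM + MSTF against control, where 50.9% of all probes were. Relative to SM it was above 0 for 40 of 56 (71.4%, from 31 genes), where 46.4% of all probes were. This lean rested on single arrays. Without SM + MSTF replicate 3 the counts were 31 of 56 against control and 29 of 56 relative to SM. Without SM replicate 3 the latter was 32 of 56. By the rules of p and overlap the share of P450 probes that differed was near the background, and the Cyp4a genes made up 4 of the 6 without overlap, beside Cyp4v3 and Cyp2c7. The comparisons share arrays of a group and are not independent.

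Cyp2j3, another epoxygenase, was the clearest case of probes of a gene that disagreed. A_43_P15850 read 13.07, 13.15 and 13.18 in control and 12.83, 12.90, 12.79 and 12.73 in SM, all lower. A_44_P242949 read 9.27, 9.43 and 9.30 in control and 9.67, 9.81, 9.48 and 9.65 in SM, all higher. Their log2 fold changes were -0.32 ± 0.23 and 0.32 ± 0.17, so no direction is given for this gene.

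Among other family 2 members, the 4 Cyp2d probes, enzymes of amine drugs, stayed between -0.05 and 0.17 in SM against control, and each 95% interval lay within 1.5-fold. Cyp2e1, the ethanol and nitrosamine oxidase, gave 14.98, 15.67 and 15.73 in control, 16.12, 15.38, 15.40 and 15.31 in SM and 15.18, 15.71 and 16.43 in SM + MSTF. Its groups overlapped fully, with log2 fold changes of 0.09 ± 0.32 in SM and 0.31 ± 0.34 in SM + MSTF against control. Without SM + MSTF replicate 3 the latter Cyp2e1 value was -0.019. Cyp2c6v1, a CAR- and PXR-responsive gene, differed by 0.35 ± 0.13 in SM + MSTF relative to SM (adjusted p = 0.255) and by -0.13 ± 0.13 in SM against control.

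Family 1 and its inducer-responsive genes were represented by Cyp1a2, the caffeine and arylamine oxidase of liver. Its probe A_42_P711139 read 14.06, 14.53 and 14.09 in control, 14.91, 14.37, 14.02 and 14.20 in SM and 13.92, 14.33 and 15.20 in SM + MSTF. The groups overlapped, and the log2 fold change was 0.15 ± 0.30 in SM and 0.26 ± 0.33 in SM + MSTF against control, with 95% intervals of -0.53 to 0.83 and -0.47 to 0.99. SM + MSTF replicate 3 exceeded the control mean by 0.97, and replicates 1 and 2 differed from it by a mean of -0.10. Cyp1a1, the most inducible AhR target, was well above background on none of the control and SM arrays and on 1 of the 3 SM + MSTF arrays, replicate 3, where it read 6.16. Cyp1b1 was well above background on no array, and Cyp2s1 was so on 3 of the 4 SM arrays and on none of the others. Ahr had no named probe, and of the other AhR targets the 3 tested included Nqo1, a quinone reductase, at 1.03 ± 0.44 in SM against control (adjusted p = 0.281). Nqo1 read 5.96, 7.43 and 8.07 in control and 7.78, 8.66, 7.73 and 8.55 in SM, and without control replicate 1 the difference was 0.43.

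Family 3, which holds the main steroid and drug oxidases of liver, had 4 probes, and none passed the test. Medians were 0.20 in SM against control, 0.38 in SM + MSTF against control and 0.17 in SM + MSTF relative to SM. Without SM + MSTF replicate 3 the last 2 medians were 0.17 and -0.097. Cyp3a2, the male-predominant enzyme, read 16.65, 16.13 and 16.73 in control, 17.07, 16.44, 16.63 and 16.52 in SM and 16.80, 16.66 and 17.27 in SM + MSTF. The groups overlapped, and SM differed from control by 0.16 ± 0.21 and SM + MSTF by 0.41 ± 0.23 on the log2 scale (0.23 without SM + MSTF replicate 3). Cyp3a62, a form found in liver and intestine, read 9.30, 9.37 and 9.52 in control and 8.87, 9.81 and 10.82 in SM + MSTF, where the lowest and the highest of the 10 arrays were both MSTF-treated rats. Cyp3a9, the female-predominant form, ranged from 8.84 to 11.25 in SM, wider than the 9.42 to 10.46 of control, and its log2 fold change of 0.57 had a 95% interval of -0.66 to 1.80.

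A list of CAR- and PXR-inducible P450 genes had 13 genes tested, and none passed the test in any comparison. Their medians were -0.05 in SM against control, -0.01 in SM + MSTF against control and 0.13 in SM + MSTF relative to SM. The list took in every Cyp2b gene measured, so also Cyp2b3, which phenobarbital does not induce, and the skin form Cyp2b12. Cyp3a23/3a1, also on the list, had no named probe. Of the 10 other CAR and PXR targets tested, such as transporters and conjugating enzymes, none passed either. Nr1i2, the gene of PXR, gave -0.04 ± 0.13 in SM against control, and Nr1i3, the gene of CAR, 0.32 ± 0.51. Nr1i3 read 7.39, 8.60 and 10.04 in SM + MSTF replicates 1, 2 and 3, the same order as the Cyp2b2 and Cyp2b12 probes, against 7.83 to 8.53 in control. Cyp2b1 did not follow that order (12.15, 12.45 and 12.27). Outside the Cyp2b genes, Cyp1a2 (13.92, 14.33 and 15.20) and Cyp2e1 (15.18, 15.71 and 16.43) did, so the order was not particular to CAR targets. This is a description over 3 rats, with no test.

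Outside families 1 to 4, Cyp26b1, which breaks down retinoic acid, had the largest fitted difference in SM. It read 7.14, 8.85 and 7.10 in control, 9.60, 10.06, 8.24 and 8.79 in SM and 9.24, 7.90 and 8.48 in SM + MSTF. Control replicate 2 lay within the SM range and the other control arrays lay below it, with a log2 fold change of 1.48 ± 0.55 (adjusted p = 0.216). Cyp26a1, the main retinoic acid hydroxylase of liver, gave 0.43 ± 0.25, with 3 of the 4 SM arrays above control. Cyp17a1, the steroid 17-alpha-hydroxylase, gave 0.08 ± 0.32 in SM against control and 0.66 ± 0.34 in SM + MSTF against control. The latter was 0.49 without SM + MSTF replicate 3 and 0.27 without control replicate 1. The other families' 6 probes were all above 0 in SM against control (median 0.26), where 55.9% of all probes were. Without control replicate 1 or without control replicate 2 the count was 5 of 6. One of the 6, Cyp27b1, was dim, and it was well above background on all 4 SM arrays but on 2 of the 3 control arrays.

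**Figure D5:**
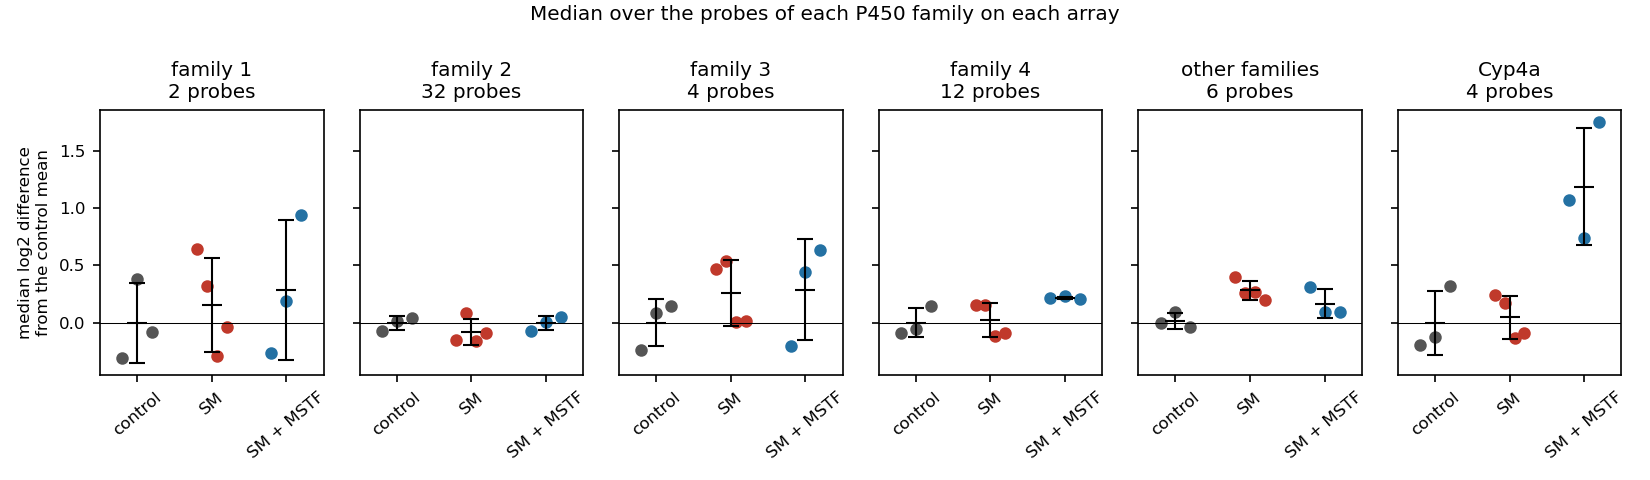
Median over the probes of each family, and of the Cyp4a subfamily, of the log2 difference from the control mean, for each array (points) with group mean and SD (bars). Family 2 stays near 0 in every group, and the Cyp4a medians of the SM + MSTF arrays (0.74 to 1.75) lie above those of control (-0.20 to 0.32) and SM (-0.13 to 0.24).

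Seen by array, the family medians of SM and control overlapped for families 1 to 4. In family 4 the SM + MSTF arrays (0.21 to 0.23) lay above control (-0.09 to 0.15) and SM (-0.12 to 0.16), and 4 of its 12 probes are the Cyp4a genes. Family 2 medians were -0.07 to 0.04 in control, -0.16 to 0.08 in SM and -0.07 to 0.05 in SM + MSTF. In family 3 and family 1 SM + MSTF spanned the widest range, from -0.20 to 0.64 and from -0.27 to 0.94.

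The machinery that P450 enzymes need did not pass the test either. Of 20 genes for electron supply and heme turnover, 0 were called in any comparison. Por, the reductase that feeds electrons to microsomal P450, gave 0.19 ± 0.23 in SM and 0.08 ± 0.25 in SM + MSTF against control. Alas1, the rate-limiting enzyme of heme synthesis, read 14.19, 14.64 and 14.24 in control and 15.40, 14.70 and 14.73 in SM + MSTF, without overlap, and differed by 0.59 ± 0.24 (adjusted p = 0.483). Hmox1, which degrades heme, gave 0.79 ± 0.43 in SM + MSTF against control (adjusted p = 0.592). Of 21 receptors and regulators of P450 genes tested, 0 were called. None of the 13 acute phase genes was called either, though all 13 were above 0 in SM + MSTF against control (median 0.36) and 11 of 13 relative to SM (median 0.36). Without SM + MSTF replicate 3 these medians were 0.27 and 0.041. Hamp, the iron hormone hepcidin, read 10.83, 14.13 and 14.92 in control, 14.94, 9.92, 12.33 and 12.08 in SM and 16.18, 16.46 and 16.52 in SM + MSTF, above every other array, with 4.07 ± 1.16 relative to SM (adjusted p = 0.147). The part of an acute phase shift in the Cyp4a result was not tested.

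Among the 15 P450 probes left out as dim, 12 were well above background on no array, and these included the steroidogenic Cyp11a1, Cyp11b1, Cyp11b2, Cyp19a1 and Cyp21a1, enzymes of adrenal and gonad, and Cyp24a1, the vitamin D 24-hydroxylase. Their change was not tested.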

How the data were processed

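Liver RNA of 10 rats was measured on Agilent 4 x 44 K one-colour arrays (1 per rat). The authors read the scans with Feature Extraction 10.7 (named in the submitters' processing notes) and deposited a background-subtracted intensity per spot, along with log2 values normalized by the quantile algorithm, which served as an alternative. From the intensities, non-uniform and control spots were left out, the 10 arrays were quantile normalized (limma 3.58.1, R 4.3.3), put on the log2 scale and averaged per probe. A probe is a P450 member if at least a share of 0.5 of its spots passed Agilent's test of signal over background in each array of some group. No member spot was saturated or missing. The number of arrays limits the precision. Names came from RefSeq accessions (assembly GRCr8), for 17512 of 41012 probes. The array was designed on an older assembly.

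The 3 pairwise group differences came from 1 limma fit with Benjamini-Hochberg adjustment over 22991 probes, and called at an adjusted p under 0.05 and at least 1.5-fold. The procedure was tested on simulated data. Described probes were the called ones, genes of fixed inducible and sex-dependent lists, the 5 largest rises and falls without overlap, and genes whose probes disagreed. Members and gene lists were chosen with earlier results of these data known. Alternatives covered scaling, background correction, filters, spots, tests, the replicate number and slide as blocks, and each array left out; leaving out population outlier spots, and medians of gene lists with each array left out, were added after the data were seen. The comparison of paralogs by protein identity was not made. One gene of the PPARA target list is not reported here, and the list's counts and medians leave it out.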

Additional observations from a re-analysis of the deposited data

Results flagged for a closer look

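Each of the 56 P450 probes was looked at for an array of the SM group (n = 4) far from the other 3, a gap that chance gives in about 5% of groups, and 2 had one. For Cyp2c7, probe A_43_P13939 on SM replicate 3 read 17.20, above 17.04 to 17.06 on the other SM arrays and still below the control arrays. For Cyp2e1, SM replicate 1 read 16.12, above 15.31 to 15.40 on the others. The cause was not tested.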

How the results depend on the processing

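Of 168 P450 log2 fold changes (56 probes in 3 comparisons), 21 had a 95% interval without 0, and 0 of these changed sign under any alternative run; of all 168, 72 changed sign under at least 1. The count of 2 in SM + MSTF versus SM was 0 with normexp background correction, without a filter on dim probes, with only probes well above background on all 10 arrays, with only the arrays compared, under the methods' t-test after Benjamini-Hochberg adjustment, and with the replicate block or slide as a random block; it was 1 with 75th percentile scaling or a trended robust prior, and 4 at an unadjusted p with the fold minimum. Leaving out each array gave 0 to 4. SM versus control went from 0 to 1 at an unadjusted p. SM + MSTF versus control went from 0 to 4 at an unadjusted p, to 3 under the methods' unadjusted t-test and to 4 with slide as a fixed block, a fit that leaves SM + MSTF replicate 3 against the 3 control arrays; there the medians of family 1, family 2 and Cyp4a moved to 0.94, 0.053 and 1.75. The other families' median in SM versus control (0.26) was 0.16 with normexp and 0.12 with probes above background on all arrays. Over arrays left out, the other families' median relative to SM in SM + MSTF ran from -0.31 to -0.14, and the family 2 median from -0.12 to 0.078 against control and from 0.023 to 0.20 relative to SM. Same-numbered rats did not deviate together (correlations from -0.10 to 0.17), so the replicate block pairs a number only. The cause of these shifts was not tested. With 3 or 4 arrays a group, a 95% interval that holds 0 does not show that there was no difference. A difference as large as its bounds remains possible.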
